A study of Mus musculus with 12 samples.

Results

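Macrophage and lymphocyte marker genes were followed across brown and white fat of mice with and without an intact Per2 gene. Of 35 genes named as markers, 21 for macrophages and 14 for lymphocytes, 34 had a transcript on the arrays that names that gene alone; Lck was the gene without one. These 34 genes, 21 macrophage and 13 lymphocyte markers, were chosen by name, with earlier results of these data known. They stand among 19933 genes fitted. Each of the 34 had a single such transcript, so no choice between transcripts was made.

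RNA came from brown adipose tissue (BAT) and white adipose tissue (WAT) of male mice aged 20 weeks, kept on chow in alternating light and dark. The groups were BAT of Per2-/- mice (KO BAT), BAT of per2+/+ mice (WT BAT), WAT of Per2-/- mice (KO WAT) and WAT of per2+/+ mice (WT WAT). Each group held 3 arrays, labelled biological replicates, for a total of 12. No label ties a BAT sample to a WAT sample of the same animal, and none names the white depot or the strain. Per2 is a core component of the circadian clock, in which PER proteins hold back the activators CLOCK and BMAL1; the Per2-/- line is credited by the labels to Bae and colleagues. All mice were sampled at 1 time of day, so no rhythm was measured.

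Macrophages are the main resident immune cells of fat, where they clear dying adipocytes, dead cell debris and released lipid, and they accumulate in white fat in obesity. They are recognised by a shared set of products: surface receptors that bind ligands or coated particles, lysosomal enzymes that degrade what is taken up, and complement C1q, which resident macrophages secrete. Lymphocytes, the T and B cells of adaptive immunity, are recognised by the chains of their antigen receptors and by the co-receptors CD4 and CD8. In mice, visceral white fat usually lies beside lymph nodes or the epididymis, so tissue pieces can carry other cell types along.

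Several features of the 12 arrays bear on all that follows. Per2 itself was not called lower in the arrays labelled KO (limma, adjusted p = 0.773 in BAT and 0.614 in WAT). Its intensities were 138.2 to 157.7 in KO BAT, against 158.1 to 174.2 in WT BAT. The BAT arrays thus did not overlap, lower in KO, as 8.24% of all genes did. In WAT its intensities overlapped, at 108 to 172 in KO WAT, against 99.5 to 122 in WT WAT. The files do not say which exons the Per2 probes read, and a probe outside the disrupted part would check nothing, so KO stands here for an array labelled Per2-/-. KO WAT replicate 3 stood apart: its rank correlations with the other KO WAT arrays were 0.954 and 0.956, where those arrays reached 0.992 with each other. The 10 brown adipocyte markers summed to intensities of 36368 to 39281 in KO BAT and 34578 to 38217 in WT BAT, and to 6017 to 10372 in KO WAT and 326 to 436 in WT WAT. The 6 measured epididymal genes summed to 11687 on KO WAT replicate 3, to 40025 and 41595 on the other KO WAT arrays and to 34898 to 36869 in WT WAT, against at most 139 in any BAT array. The 9 white adipocyte markers summed to 15585 to 16187 in KO BAT and 14389 to 14997 in WT BAT, and to 18953 to 35573 in KO WAT and 19018 to 21146 in WT WAT. The 12 skeletal muscle markers summed to 5245 to 17881 in KO BAT and 9454 to 39089 in WT BAT. In WAT they summed to 542 to 1782 in KO WAT and 229 to 232 in WT WAT. The part of muscle RNA in the values that follow was not tested.

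The macrophage markers separated the depots. In KO mice 19 of 21 were lower in BAT than in WAT (limma on log2(intensity + 16), Benjamini-Hochberg adjusted p under 0.05), where 26.8% of all genes were lower and 20.2% higher, and none of the 21 was higher. In WT mice 18 of 21 were lower in BAT, where 30.3% of all genes were lower and 20.3% higher, and again none of the 21 was higher. The arrays of the depots did not overlap, lower in BAT, for 18 of 21 in KO mice (30.1% of all genes) and 19 of 21 in WT mice (34.9% of all genes). The median log2 difference, BAT minus WAT, was -1.34 in KO mice and -1.30 in WT mice. These are folds of 2.52 and 2.46 lower in BAT for intensity + 16. The added 16 makes them smaller than ratios of the intensities themselves, most of all for dim genes. The median over all genes was 0.01 in KO mice and -0.03 in WT mice. All 6 BAT arrays lay below all 6 WAT arrays for 16 of the 21, which held for 23.2% of all genes. In pieces of tissue, fewer macrophages and less RNA per macrophage cannot be told apart. Other cell types differed between depots too. Of 9 fibroblast markers, 7 were called lower in BAT in either genotype and 1 higher in WT mice. Their medians were -1.33 in KO mice and -1.53 in WT mice. All 8 mesothelial markers were lower, with medians of -3.29 and -3.55. Of 10 endothelial markers, 5 in KO mice and 6 in WT mice were higher and 1 lower. Their part in the macrophage gap was not tested.

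**Figure D1:**
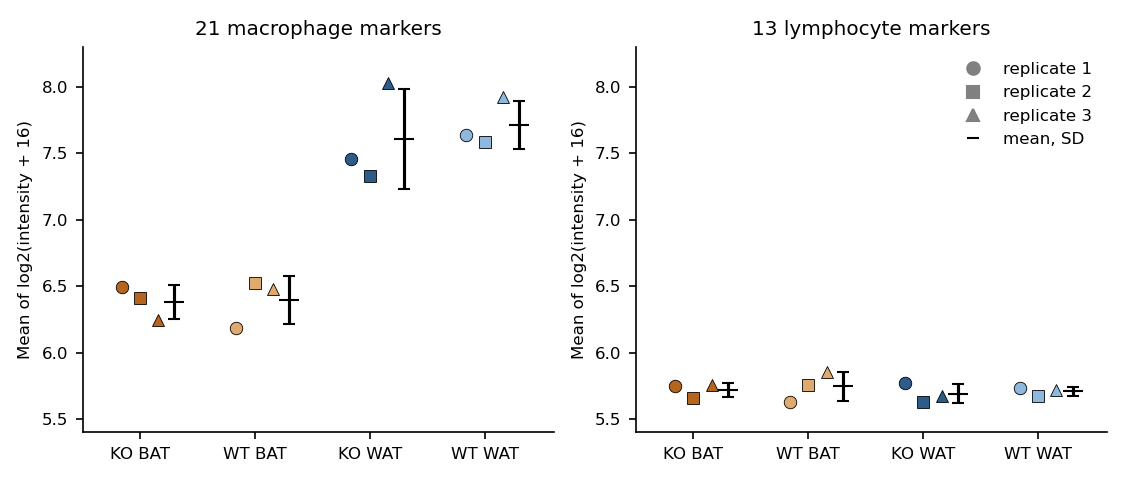
Mean of log2(intensity + 16) over the 21 macrophage markers (left) and the 13 lymphocyte markers (right) on each array, with KO BAT, WT BAT, KO WAT and WT WAT along the x axis, 1 symbol per replicate, and the mean and SD of 3 arrays as a bar. The macrophage level lay between 6.19 and 6.52 in BAT and between 7.33 and 8.03 in WAT, whereas the lymphocyte level lay between 5.63 and 5.85 on all arrays.

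As a level over the whole list, the mean log2 value of the macrophage markers was 6.38 ± 0.129 in KO BAT, against 7.61 ± 0.376 in KO WAT, and 6.396 ± 0.183 in WT BAT, against 7.72 ± 0.181 in WT WAT (SD, n = 3 each). The 4 groups thus fell into a WAT pair and a BAT pair, and within either pair KO and WT differed by less than the larger SD. In KO WAT replicate 3 stood at 8.03, and replicates 1 and 2 at 7.46 and 7.33.

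The lysosomal and phagocytic products had some of the widest gaps. Ctss encodes cathepsin S, a lysosomal protease that trims the invariant chain of MHC class II molecules. Its intensities were 149.9, 162 and 118 in KO BAT, against 458, 446 and 616 in KO WAT, and 92.9, 128 and 131 in WT BAT, against 634, 544 and 765 in WT WAT. Every BAT array lay below every WAT array, and the log2 difference was -1.71 ± 0.174 in KO mice (SE, limma adjusted p = 1.15e-05) and -2.32 ± 0.174 in WT mice (adjusted p = 7.6e-07).

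Lyz2, lysozyme, the enzyme that cleaves bacterial cell walls, read 455, 405 and 345 in KO BAT, against 1235, 1123 and 2182 in KO WAT, and 327, 456 and 421 in WT BAT, against 1688, 1524 and 1771 in WT WAT. The depots did not overlap, with log2 differences of -1.82 ± 0.218 in KO mice (SE, adjusted p = 3.83e-05) and -2.02 ± 0.218 in WT mice (adjusted p = 1.2e-05). Whether its probes also read the near-identical Lyz1 is unknown, so its values are uncertain in that respect.

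Lgals3, galectin-3, a lectin of activated macrophages, read 45.1, 44.0 and 79.6 in KO BAT, against 174, 188 and 275 in KO WAT, and 23.9, 42.1 and 33.7 in WT BAT, against 236, 195 and 259.9 in WT WAT. Its log2 difference was -1.67 ± 0.217 in KO mice (SE, adjusted p = 6.99e-05) and -2.33 ± 0.217 in WT mice (adjusted p = 3.74e-06), the widest of the 21 in WT mice. Cd68, a glycoprotein of lysosomal membranes, averaged 81.5 ± 7.10 in KO BAT, against 272 ± 58.9 in KO WAT, and 91.1 ± 20.0 in WT BAT, against 409.7 ± 97.8 in WT WAT (SD, n = 3 each). It was lower in BAT by log2 differences of -1.55 in KO mice and -1.98 in WT mice. Mpeg1, perforin-2, the pore-forming protein of phagosomes, was lower in BAT, at log2 differences of -1.33 in KO mice and -1.66 in WT mice.

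**Figure D2:**
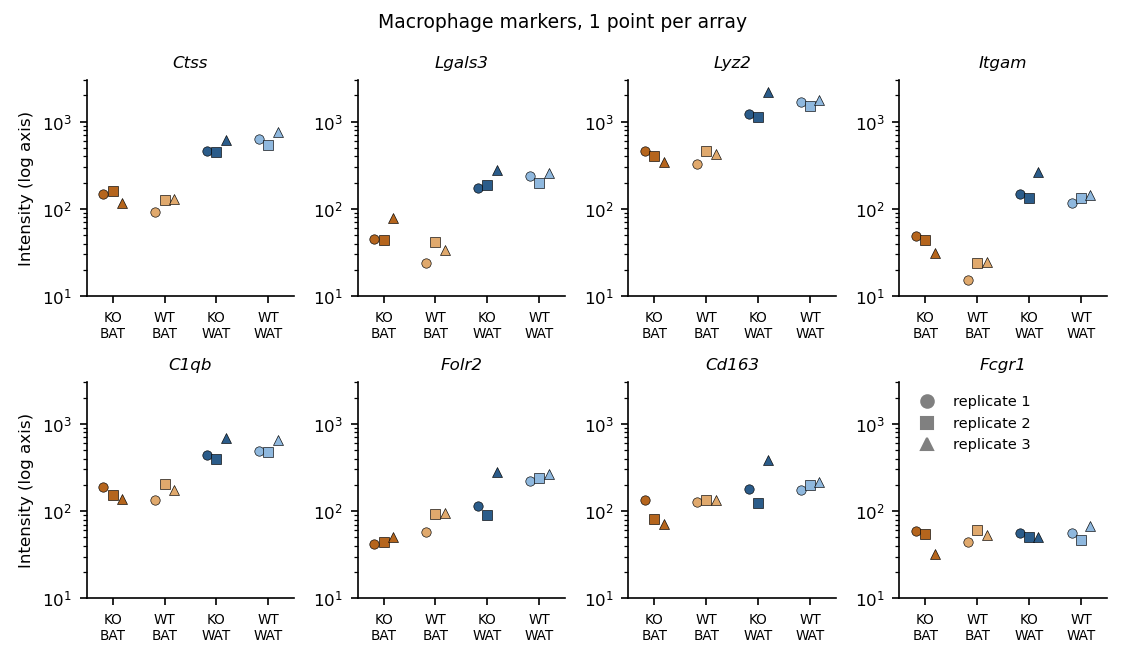
Intensity on a log axis of 8 macrophage markers, 1 point per array, with KO BAT, WT BAT, KO WAT and WT WAT along the x axis of each panel and 1 symbol per replicate. Ctss, Lgals3, Lyz2, Itgam and C1qb sit lower on every BAT array than on every WAT array, whereas Fcgr1 sits between 32.6 and 67.3 in all groups.

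Among the receptors, Itgam, the CD11b chain of the integrin that binds complement-coated particles, read 49.0, 44.5 and 30.9 in KO BAT, against 146, 135 and 265 in KO WAT, and 15.3, 24.0 and 24.4 in WT BAT, against 116, 133 and 143 in WT WAT. The 6 BAT arrays all lay below the 6 WAT arrays, at -1.74 ± 0.216 in KO mice and -1.98 ± 0.216 in WT mice on the log2 scale (SE, adjusted p = 5e-05 in KO and 1.27e-05 in WT). Adgre1, the F4/80 antigen by which mouse macrophages are usually stained, read 57.1, 43.7 and 36.9 in KO BAT, against 135, 123 and 218 in KO WAT, and 38.2, 51.1 and 47.4 in WT BAT, against 113, 165 and 182 in WT WAT. Its differences of -1.47 in KO mice and -1.44 in WT mice were nearly the same size. Csf1r, the receptor for the growth factor CSF1 on which macrophages depend, differed by -1.59 in KO mice and -1.42 in WT mice.

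The scavenger and lectin receptors of resident macrophages followed. Folr2, folate receptor beta, was lower in BAT, at log2 differences of -1.39 in KO mice and -1.43 in WT mice, and so was Mrc1, the mannose receptor CD206, at -1.20 in KO mice and -1.16 in WT mice. Clec10a, a lectin that binds galactose-type sugars, was lower in BAT, at -1.34 in KO mice and -1.20 in WT mice. Tyrobp, the adaptor DAP12 that passes receptor signals on through its ITAM motif, differed by -1.19 in KO mice and -1.22 in WT mice, and Aif1, the actin-binding protein IBA1, by -0.82 in KO mice and -1.26 in WT mice. Fcgr3, a low-affinity receptor for IgG, differed by -0.91 in KO mice and -0.96 in WT mice.

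The 3 chains of complement C1q, which starts the classical complement pathway, were lower in BAT together. C1qb averaged 159.6 ± 26.7 in KO BAT, against 508 ± 158 in KO WAT, and 172 ± 35.8 in WT BAT, against 539 ± 93.8 in WT WAT (SD, n = 3 each). The log2 differences were -1.37, -1.55 and -1.28 for C1qa, C1qb and C1qc in KO mice, and -1.14, -1.57 and -1.30 in WT mice. The genes are neighbours on chromosome 4 in GRCm38.p6, with 3601 bases between C1qb and C1qc and 2980 bases between C1qc and C1qa. After the group means were taken out, the 3 chains and Lyz2 had the highest correlations with the rest of the macrophage list over the 12 arrays, at r = 0.967 for C1qb, 0.959 for Lyz2, 0.957 for C1qc and 0.942 for C1qa, given as a description.

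The promoters of 4 of these transcripts are shown as examples from markers with wide or parallel depot gaps. That of Cd3d, a chain of the T-cell receptor complex that was not called between depots, is shown beside them. Every window shown holds GGAAGT, which was found in 9 of 17 macrophage windows, so they do not represent the list. Each sequence runs 5′ to 3′ on the gene's own strand, with 250 bases before the RefSeq start and 20 after it. Capitals mark GGAAGT, the core that ETS-family factors such as the macrophage regulator PU.1 bind, or the longer GAGGAAGT that contains it, on either strand. The sequences are RefSeq's, from GRCm38.p6, at chr3:95526536-95526805 (plus strand, Ctss), chr4:136886181-136886450 (minus, C1qb), chr4:136892895-136893164 (minus, C1qc), chr10:117282253-117282522 (minus, Lyz2) and chr9:44981536-44981805 (plus, Cd3d).
Ctss: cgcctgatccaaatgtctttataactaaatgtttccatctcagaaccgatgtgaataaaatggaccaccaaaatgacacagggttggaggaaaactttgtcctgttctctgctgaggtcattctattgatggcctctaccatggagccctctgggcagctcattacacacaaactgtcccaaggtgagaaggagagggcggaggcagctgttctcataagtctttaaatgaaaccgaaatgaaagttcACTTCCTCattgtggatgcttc
C1qb: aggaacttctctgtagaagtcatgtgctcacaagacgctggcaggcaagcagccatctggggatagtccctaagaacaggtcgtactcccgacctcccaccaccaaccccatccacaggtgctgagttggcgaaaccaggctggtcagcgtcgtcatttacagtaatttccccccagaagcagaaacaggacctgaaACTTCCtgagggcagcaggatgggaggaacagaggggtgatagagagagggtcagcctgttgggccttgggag
C1qc: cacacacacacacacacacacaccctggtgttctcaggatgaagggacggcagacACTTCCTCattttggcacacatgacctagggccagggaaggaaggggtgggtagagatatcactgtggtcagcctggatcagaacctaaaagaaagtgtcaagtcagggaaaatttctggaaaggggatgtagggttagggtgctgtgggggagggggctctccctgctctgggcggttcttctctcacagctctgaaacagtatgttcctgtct
Lyz2: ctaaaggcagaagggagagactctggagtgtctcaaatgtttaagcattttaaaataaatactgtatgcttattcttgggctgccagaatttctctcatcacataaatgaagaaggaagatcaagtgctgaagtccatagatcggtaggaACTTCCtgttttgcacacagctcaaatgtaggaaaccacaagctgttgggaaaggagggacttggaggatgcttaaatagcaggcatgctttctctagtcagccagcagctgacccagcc
Cd3d: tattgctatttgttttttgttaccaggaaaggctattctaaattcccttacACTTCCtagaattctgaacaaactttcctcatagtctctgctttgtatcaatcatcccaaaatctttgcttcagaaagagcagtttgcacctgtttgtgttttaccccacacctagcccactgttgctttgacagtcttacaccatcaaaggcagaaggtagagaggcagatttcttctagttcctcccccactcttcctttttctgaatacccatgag

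In Ctss the longer motif spans the annotated start, beginning 2 bases before it, and in C1qc it begins 195 bases before the start. Windows of 300 bases, 250 before and 50 after a start, were found for 22 of the 34 markers. GGAAGT was found in 9 of 17 windows of macrophage markers (52.9%), in 5 of 7 windows of lymphocyte markers (71.4%) and in 23.8% of all 32851 windows. The share was no higher in macrophage than in lymphocyte windows. GAGGAAGT, which always holds GGAAGT, was found in 2 macrophage windows (11.8%), 1 lymphocyte window (14.3%) and 3.2% of all windows. The E-box CACGTG, the sequence that the clock activators CLOCK and BMAL1 bind and PER proteins repress, was found in 0 of the 17 macrophage and 0 of the 7 lymphocyte windows and in 7.15% of all windows. TTGCNNAA, a form of the C/EBP site, was found in 17.6% of macrophage, 28.6% of lymphocyte and 10.8% of all windows. The motifs were searched on both strands. A match is a description of the letters in these windows only.

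A few macrophage markers kept apart from the shared pattern. Fcgr1, the high-affinity IgG receptor CD64, averaged 49.0 ± 14.4 in KO BAT, against 51.9 ± 3.26 in KO WAT, and 52.4 ± 8.16 in WT BAT, against 56.6 ± 10.3 in WT WAT (SD, n = 3 each). Its depot differences of -0.09 in KO mice and -0.08 in WT mice were smaller than their SE of 0.165, and the 95% interval in WT mice ran from -0.44 to 0.28. Itgax, the CD11c integrin chain of dendritic cells and of macrophages in obese fat, read 33.4, 40.2 and 38.1 in KO BAT, against 40.7, 30.7 and 37.9 in KO WAT, and 17.5, 32.3 and 29.1 in WT BAT, against 36.7, 38.6 and 42.2 in WT WAT. It was called lower in BAT in WT mice (-0.40 ± 0.133, adjusted p = 0.0255), where its groups did not overlap, but not in KO mice (0.02, adjusted p = 0.896); the WT call was lost without WT WAT replicate 2 (-0.41, adjusted p = 0.0565), WT WAT replicate 3 (-0.36, adjusted p = 0.0843) or WT BAT replicate 1 (-0.24, adjusted p = 0.0947), and when the arrays were centred on their medians (-0.09, adjusted p = 0.544).

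Cd163, the scavenger receptor for haemoglobin bound to haptoglobin, went the other way in its calls. It read 135, 80.6 and 71.0 in KO BAT, against 178, 125 and 382 in KO WAT, and 127, 133 and 132 in WT BAT, against 174, 197 and 216 in WT WAT. The WT arrays did not overlap, yet the difference of -0.52 ± 0.31 was not called (adjusted p = 0.183), while in KO mice the arrays overlapped and the difference of -1.04 ± 0.31 was called (adjusted p = 0.0166). The SE is shared by all groups of the fit, and the 3 KO WAT values were the most spread of Cd163: in a fit of the 6 WT arrays alone the difference was called (adjusted p = 0.00184), and in a fit of the 6 KO arrays alone it was not (adjusted p = 0.0814). The KO call was also lost without KO BAT replicate 2 (adjusted p = 0.0547) or 3 (adjusted p = 0.0679), with quantile normalization (-0.77, adjusted p = 0.0628) and with centring (-0.76, adjusted p = 0.0548). Cd14, the co-receptor for bacterial lipopolysaccharide, was called lower in BAT in KO mice (-0.62, adjusted p = 0.031) and not in WT mice (-0.33, adjusted p = 0.21); the KO call was lost without KO WAT replicate 3 (-0.42, adjusted p = 0.0947), KO WAT replicate 2 (adjusted p = 0.0563), or KO BAT replicate 1 (adjusted p = 0.109) or 2 (adjusted p = 0.0538). It was also lost with centring (-0.34, adjusted p = 0.19) and with quantile normalization (-0.44, adjusted p = 0.128).

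**Figure D3:**
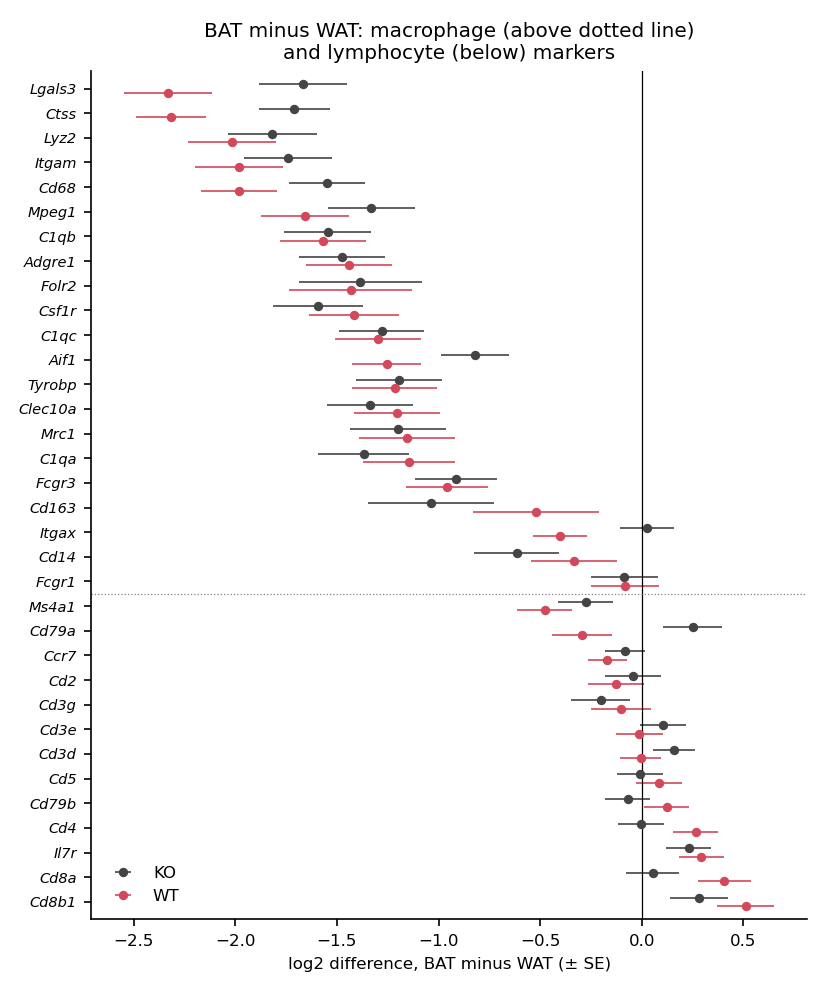
Log2 difference, BAT minus WAT, with its SE, in KO mice (dark) and WT mice (red), for the 21 macrophage markers above the dotted line and the 13 lymphocyte markers below it, ordered by the WT difference. Macrophage differences run down to -2.33 in WT mice and -1.82 in KO mice, and lymphocyte differences lie between -0.48 and 0.51.

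The depot gap was present with and without the array that stood apart. Leaving out KO WAT replicate 3, 18 of 21 macrophage markers were called between depots in KO mice, all of them lower in BAT. The median of the 21 was -1.09. In that fit 9920 of all 19933 genes were called in either direction, against 9373 with all arrays. Centring each array on its median moved the median of all genes to 0.28 in KO mice and 0.28 in WT mice, because array medians were lower in BAT by 0.27 and 0.31. The macrophage medians then stood at -1.06 and -0.99, and 17 of 21 were called lower in either genotype. Among all 19933 genes, 3391 in KO mice and 3834 in WT mice were called lower with centring. Over all genes, 57.1% of calls in KO mice and 59.9% in WT mice were lower in BAT as deposited, against 26.6% and 28.9% after centring. The epididymal sum moved with depot as well. On KO WAT replicate 3, where the epididymal sum was lowest of the WAT arrays at 11687, the macrophage markers summed to 8083, the highest of all arrays. What part this RNA had in the depot gap was not tested.

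Replicates differed in macrophage signal as a block. KO WAT replicate 3 was the highest of its group for 18 of the 21 markers, where it was highest for 38.1% of all genes, and WT WAT replicate 3 was highest for 20 of 21, against 38.3% of all genes. Other lists moved on KO WAT replicate 3 too. The endothelial mean log2 value was 8.67 there, against 7.80 and 7.94 on KO WAT replicates 1 and 2. The white adipocyte value was 11.08, against 10.23 and 10.26. The epididymal value was lower, at 10.35, against 12.41 and 12.39. In BAT, KO replicate 3 was the lowest of its group for 15 of 21 markers (32.8% of all genes) and WT replicate 1 for 17 of 21 (30.1% of all genes). Aif1, Fcgr1, Itgax and Lgals3 followed the other macrophage markers least, with correlations with the rest of the list, after removal of group means, of 0.113, 0.447, 0.470 and 0.475. Outside the lists, the genes whose 12-array profile was most like the macrophage mean, among 9075 genes with a mean intensity of at least 100, were Dse (Pearson r = 0.9903), Man1c1 (0.9903), Mr1 (0.9902), Tpm4 (0.9893) and Rhbdf1 (0.9889). These points share their arrays and the depot gap.

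Between KO and WT no marker was called in either depot. In WAT, 0 of 21 macrophage and 0 of 13 lymphocyte markers passed the adjusted threshold by limma, where 2.42% of all genes did, and 3 macrophage and 2 lymphocyte markers had an unadjusted p under 0.05, as 13.9% of all genes had. In BAT the count was again 0 of 21 and 0 of 13, where 1.72% of all genes passed, with 4 and 1 at an unadjusted p under 0.05, as 12.5% of all genes had. The median difference of the macrophage markers, KO minus WT, was -0.09 in BAT and -0.08 in WAT, against 0.03 and -0.01 over all genes. The median SE of these differences was 0.212. In WAT, the 95% interval ran from -0.67 to 0.28 for Lyz2 and from -0.58 to 0.35 for C1qb, so with 3 arrays a group differences within those bounds were not told from 0. Array weights called 5 macrophage markers in WAT, with 1630 of all genes called, against 482 without weights. P-values of the authors' deposited table on log values, adjusted over the same genes, called 2 macrophage markers in BAT, with 1072 of all genes called, against 343 by limma, and 1 lymphocyte marker in WAT, with 536 of all genes called.

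Folr2, Cd68 and Aif1 were the macrophage markers furthest below WT in white fat. Folr2 read 113, 90.8 and 281 in KO WAT, against 224, 240.5 and 265 in WT WAT; 2 of the 3 KO arrays lay below every WT array and replicate 3 lay above them all. The log2 difference was -0.69 ± 0.303 (SE, adjusted p = 0.338), with a 95% interval from -1.36 to -0.03. Cd68 read 235, 241 and 340.2 in KO WAT, against 385, 327 and 517 in WT WAT, which overlapped through KO replicate 3, and differed by -0.56 ± 0.188 (adjusted p = 0.189). Aif1 averaged 31.0 ± 2.40 in KO WAT, against 50.1 ± 11.3 in WT WAT (SD, n = 3 each). It was the single macrophage marker of the 21 whose KO and WT arrays in WAT did not overlap, lower in KO, as 10.7% of all genes did, and its difference was -0.48 ± 0.169 (adjusted p = 0.21). Itgam pointed the other way at 146, 135 and 265 in KO WAT, against 116, 133 and 143 in WT WAT (0.38 ± 0.216, adjusted p = 0.486).

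These white-fat values depended on KO WAT replicate 3. Without it, the macrophage median was -0.31, 19 of 21 differences were negative and 13 of 21 markers had KO arrays below all WT arrays, which held for 18.1% of all genes with 2 KO arrays. Folr2 and Cd68 were then called lower in KO WAT, where 4.39% of all genes were called and 2.21% called lower, at -1.14 (adjusted p = 0.00195) and -0.72 (adjusted p = 0.0443). The lymphocyte median was -0.04 and no lymphocyte marker was called (limma, 2 at an unadjusted p under 0.05). Lyz2 stood at -0.49 (adjusted p = 0.0984), Fcgr3 at -0.49 (adjusted p = 0.111) and Ctss at -0.49 (adjusted p = 0.158). Beside this, brown adipocyte markers summed to 6017, 6170 and 10372 in KO WAT replicates 1 to 3, against at most 436 in WT WAT, and skeletal muscle markers to 542 to 1782 in KO WAT, against 229 to 232 in WT WAT. Their part in the macrophage values was not tested.

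**Figure D4:**
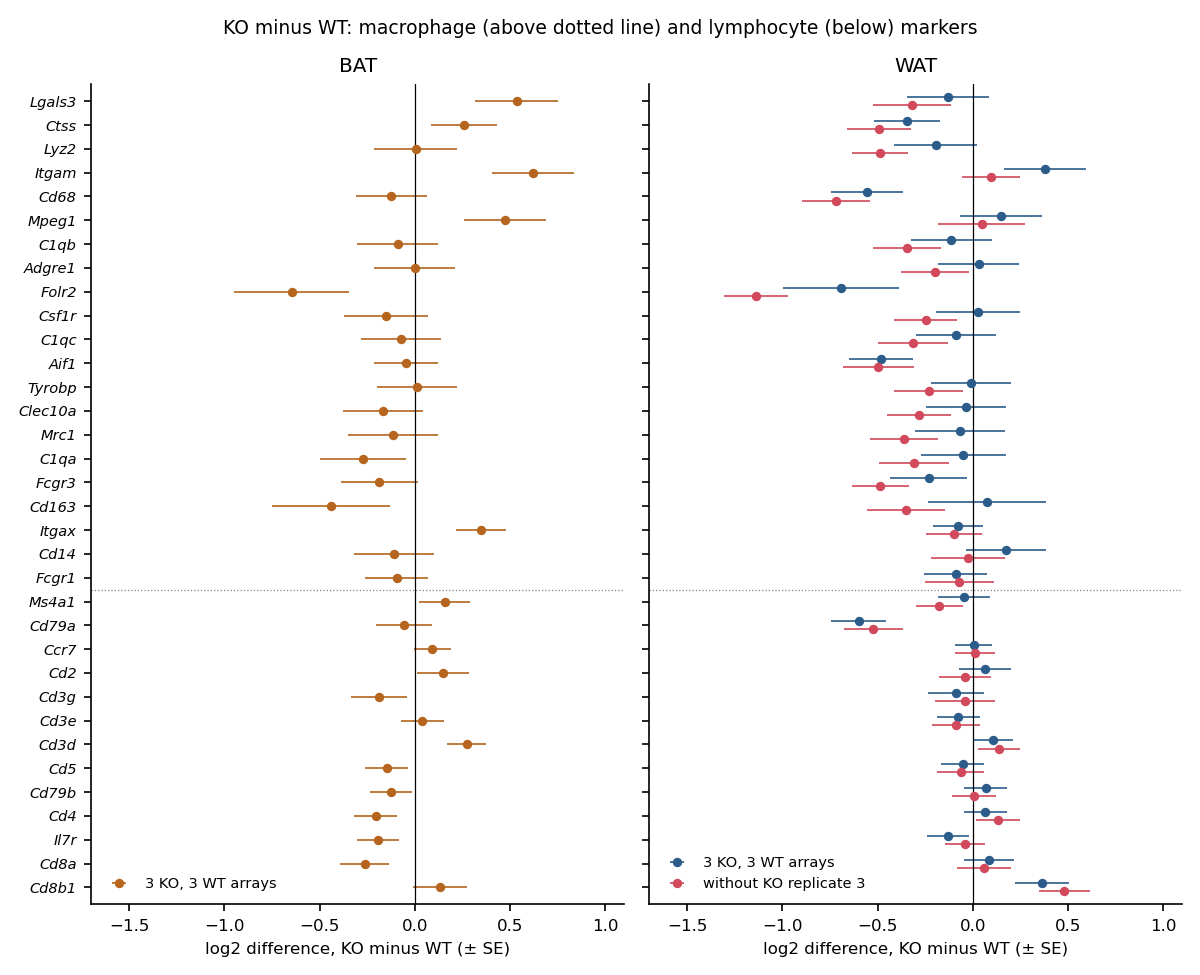
Log2 difference, KO minus WT, with its SE, in BAT (left) and WAT (right), for the 21 macrophage markers above the dotted line and the 13 lymphocyte markers below it, with the WAT values also drawn without KO replicate 3 (red). Without that array Folr2 stands at -1.14, and 19 of 21 macrophage differences are negative, against 15 of 21 with all arrays, while the lymphocyte median is -0.04, against 0.01.

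In brown fat, where limma called no macrophage marker, Itgam read 49.0, 44.5 and 30.9 in KO BAT, against 15.3, 24.0 and 24.4 in WT BAT, with no overlap (0.62 ± 0.216, adjusted p = 0.235). Itgax, its neighbour 11035 bases away on chromosome 7, read 33.4, 40.2 and 38.1 in KO BAT, against 17.5, 32.3 and 29.1 in WT BAT (0.35 ± 0.133, adjusted p = 0.287). Together with Lgals3 (0.54, adjusted p = 0.322) these were the 3 of 21 macrophage markers whose KO BAT arrays all lay above the WT BAT arrays, as 14.2% of all genes did. Folr2 was the single macrophage marker with all KO BAT arrays below, as 8.24% of all genes were, at 42.3, 43.8 and 49.9 in KO BAT, against 57.0, 92.2 and 95.8 in WT BAT (-0.65 ± 0.303, adjusted p = 0.417).

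The shared SE again included KO WAT replicate 3. Without it the BAT differences of Itgam and Folr2 kept their size, and their adjusted p-values became 0.0227 and 0.0291, with 1033 of all genes called, against 343. By the authors' deposited p-values on log values the same pair was past the threshold after adjustment (0.014 for Itgam and 0.00984 for Folr2). With all 12 arrays, the Folr2 difference was -0.65 in BAT and -0.69 in WAT, and that of Itgam was 0.62 in BAT and 0.38 in WAT, none of them called.

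The genotype difference was also compared between depots, as that in BAT minus that in WAT. None of the 34 markers was called, where 0.592% of all genes were, and 2 macrophage markers and 1 lymphocyte marker had an unadjusted p under 0.05 by limma, as 9.46% of all genes had. They were Ctss (0.61, adjusted p = 0.467), whose genotype difference was 0.26 in BAT and -0.35 in WAT, Itgax (0.43, adjusted p = 0.508) and Cd79a (0.54, adjusted p = 0.417).

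The lymphocyte markers were dim and nearly level. All 13 had a mean intensity under 100 over the 12 arrays, and 8 were under 50, against 9 and 3 of the 21 macrophage markers and 53.8% of all genes under 100. The files carry no detection call, so how far these probes stood above background is unknown. As a list level they gave a mean log2 value of 5.72 ± 0.0525 in KO BAT, against 5.69 ± 0.072 in KO WAT, and 5.75 ± 0.112 in WT BAT, against 5.71 ± 0.0329 in WT WAT (SD, n = 3 each), and these ranges overlapped in all 4 groups.

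**Figure D5:**
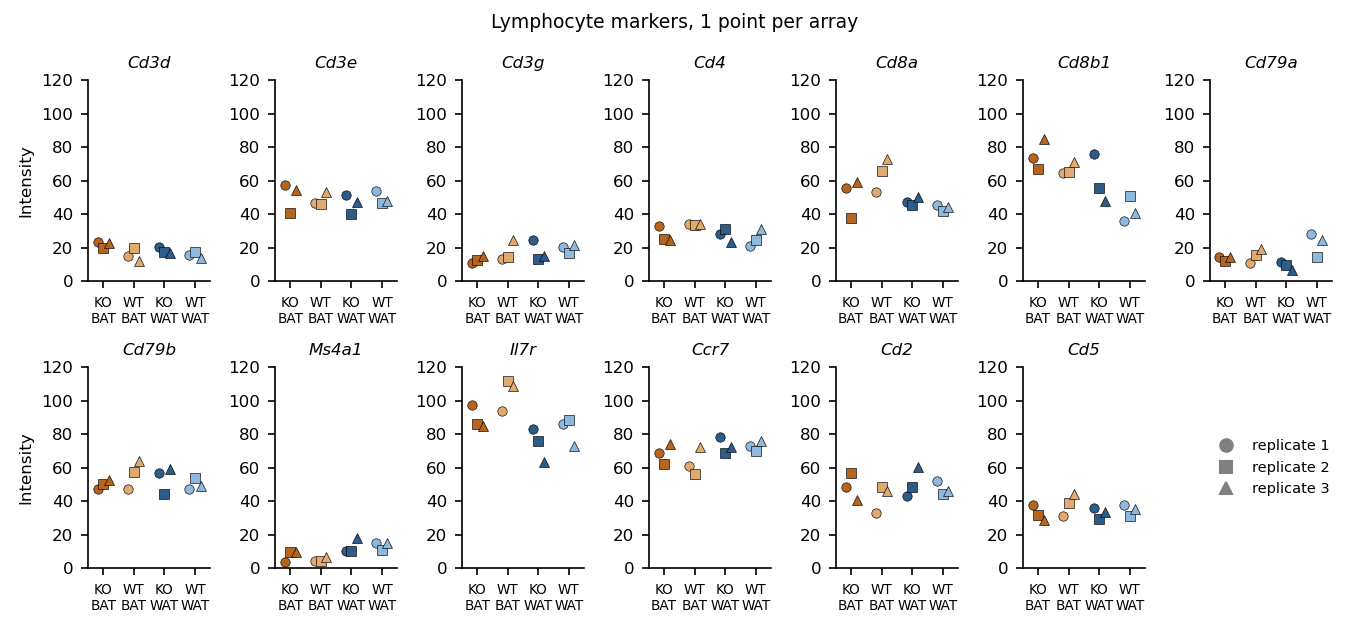
Intensity of the 13 lymphocyte markers, 1 point per array, with KO BAT, WT BAT, KO WAT and WT WAT along the x axis of each panel and 1 symbol per replicate. No marker exceeded 112 on any array, and the groups overlap for most of them.

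In KO mice 0 of 13 lymphocyte markers were called between depots, where 47% of all genes were, and 0 had an unadjusted p under 0.05 by limma, where 53.9% of all genes had. In WT mice 3 were called higher in BAT (20.3% of all genes) and 1 lower (30.3% of all genes). In KO mice the arrays did not overlap for 2 of 13, higher in BAT (25.6% of all genes), and for Ms4a1, lower in BAT (30.1% of all genes). In WT mice they did not overlap for 4 of 13, higher in BAT (25.9% of all genes), and again for Ms4a1, lower in BAT (34.9% of all genes). Cd8b1, the beta chain of the CD8 co-receptor of cytotoxic T cells, read 64.6, 65.0 and 70.8 in WT BAT, against 35.6, 50.8 and 40.7 in WT WAT (0.51 ± 0.141, adjusted p = 0.00953). Cd8a, the alpha chain, whose gene lies 35935 bases from it on chromosome 6, read 53.1, 65.4 and 72.6 in WT BAT, against 45.3, 42.1 and 44.3 in WT WAT (0.40 ± 0.13, adjusted p = 0.0218). For neither gene did the WT arrays overlap, though the Cd8a call was lost without WT WAT replicate 2 or 3 or WT BAT replicate 2 or 3, each in turn (adjusted p of 0.0521 to 0.0847). Il7r, the receptor for the T-cell survival factor IL-7, was higher in WT BAT by 0.29 (adjusted p = 0.0431), a call lost without any 1 of 8 arrays (adjusted p of 0.0526 to 0.165). In KO mice the differences were 0.28 for Cd8b1 (adjusted p = 0.123), 0.05 for Cd8a (adjusted p = 0.76) and 0.23 for Il7r (adjusted p = 0.107), and the differences between the genotypes were not called.

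Among the B-cell markers, Ms4a1, the CD20 antigen, read 3.93, 9.61 and 9.89 in KO BAT, against 10.1, 10.2 and 18.3 in KO WAT, and 4.60, 4.24 and 6.85 in WT BAT, against 14.9, 11.0 and 14.9 in WT WAT. It was the single lymphocyte marker of 13 with all 6 BAT arrays below all 6 WAT arrays, which held for 23.2% of all genes, and was called lower in WT BAT (-0.48 ± 0.135, adjusted p = 0.0111), a call lost with centring (-0.17, adjusted p = 0.306). Cd79a, a signalling chain of the B-cell receptor, read 11.2, 9.63 and 6.44 in KO WAT, against 28.2, 14.3 and 24.6 in WT WAT. Its KO arrays all lay below its WT arrays, and at -0.60 ± 0.146 (adjusted p = 0.0578) it came nearest to the threshold of all 34 markers between genotypes. Without WT WAT replicate 2, the lowest of the WT arrays, it was called (-0.76, adjusted p = 0.0204). Its partner chain Cd79b differed by 0.07 between KO WAT and WT WAT (adjusted p = 0.857).

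The chains of the T-cell receptor complex were not called in any comparison, though scaling changed this between depots. With centring, Cd3d and Cd3e were called higher in KO BAT than in KO WAT (0.43, adjusted p = 0.00567, and 0.38, adjusted p = 0.0151) and in WT BAT than in WT WAT (0.30, adjusted p = 0.0315, and 0.30, adjusted p = 0.0423). With quantile normalization, Cd3e was called higher in KO BAT (0.29, adjusted p = 0.0487). Cd3e averaged 50.9 ± 8.87 in KO BAT, against 46.0 ± 5.70 in KO WAT, and 48.8 ± 4.02 in WT BAT, against 49.3 ± 3.92 in WT WAT (SD, n = 3 each). Cd3d and Cd3g, next to it on chromosome 9, had means of 12.96 to 22.1 in the 4 groups. The largest genotype difference among the 3 was that of Cd3d in BAT, at 23.4, 19.9 and 23.0 in KO BAT, against 15.05, 19.99 and 11.98 in WT BAT (0.27 ± 0.102, adjusted p = 0.273). Cd4, the co-receptor of helper T cells, was 32.8, 25.0 and 24.3 in KO BAT, against 33.8, 33.5 and 34.1 in WT BAT (-0.20 ± 0.112, adjusted p = 0.514). The homing receptor Ccr7, the adhesion molecule Cd2 and the inhibitory receptor Cd5 had differences between -0.17 and 0.15 in all 4 comparisons of groups. The arrays of Cd8a in WAT did not overlap, higher in KO, as 9.88% of all genes did, at a difference of 0.09 (adjusted p = 0.84).

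Centring the arrays turned lymphocyte values upward in BAT, since the median of all genes moved by 0.27 in KO mice and 0.31 in WT mice, and 7 of 13 in KO mice and 8 of 13 in WT mice were then called higher. Of all 19933 genes, 9337 in KO mice and 9439 in WT mice were called higher with centring. The lymphocyte medians of 0.27 in KO mice and 0.30 in WT mice lay near the median of all genes, 0.28 in either genotype. The genes outside the lists most like the lymphocyte mean were Cpa4 (Pearson r = 0.8102) and Elapor1 (0.7865) over the same 12 arrays.

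Other genes of myeloid cells, not all of them particular to macrophages, were described from a list of 50. It holds none of the 34 markers, and 45 of its genes were measured. In KO mice 30 were lower in BAT and 4 higher, and in WT mice also 30 lower and 4 higher, with medians of -0.80 in KO mice and -0.73 in WT mice, where 26.8% of all genes were lower and 20.2% higher in KO mice and 30.3% and 20.3% in WT mice. Ctsl, the lysosomal protease cathepsin L, averaged 1089.8 in KO BAT, against 2385 in KO WAT, and 1189 in WT BAT, against 3362 in WT WAT. Cebpb, a transcription factor of adipocytes as well as of myeloid cells, was higher in BAT, at log2 differences of 2.05 in KO mice and 2.30 in WT mice. Of 13 measured complement genes, which include the 3 C1q chains, all 13 were lower in BAT in either genotype. Several of them, such as Serping1, the C1 inhibitor, are also made by cells other than macrophages.

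Between genotypes, 4 of these 45 myeloid genes were called in WAT, where 2.42% of all genes were, and 0 in BAT, where 1.72% were (limma, with 7 at an unadjusted p under 0.05 in BAT). Ms4a7, a tetraspan protein of macrophages, read 20.4, 21.7 and 23.3 in KO WAT, against 42.4, 42.0 and 56.2 in WT WAT (-0.73 ± 0.119, adjusted p = 0.00711). Ly86, the MD-1 partner of the receptor RP105, read 116, 94.7 and 126 in KO WAT, against 178, 184 and 250.0 in WT WAT (-0.77 ± 0.179, adjusted p = 0.0476). For these genes KO WAT replicate 3 stayed below every WT WAT array. Ctsl was also lower in KO WAT (-0.49, adjusted p = 0.0205) and Cebpb higher (0.71, adjusted p = 0.0196).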

How the data were processed

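Per the labels, total RNA of each fat sample was isolated with TRIzol and RNeasy columns and biotin-labelled for Affymetrix arrays, with 3 biological replicates a group. The authors deposited linear intensities, 1 per transcript and array, made with PLIER per the submitters' processing notes; the labels and headers record neither their scaling nor a background step, and no detection call is in the files. Per the file headers, the authors' p-values came from Cyber-T 8.01 (hdarray 3.71, R 2.2.1), on linear and on natural-log values. Of 35557 transcripts, 21789 name 1 gene in the platform annotation. Those the authors tested gave 19933 genes, 1 transcript each by highest mean. No member needed that choice.

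log2(intensity + 16) was fitted with limma 3.58.1 in R 4.3.3 (4 group means, 12 arrays, lmFit and eBayes, 8 residual and 3.51 prior degrees of freedom), with Benjamini-Hochberg adjustment over all 19933 genes and calls at adjusted p under 0.05; every adjusted p in the text is from such a fit across all genes unless it is credited to the authors. The method was tested on simulated data. P-values measure the spread between these samples only, and the number of arrays limits the precision. Members and lists were chosen with earlier results of these data known. All members could be named. Beside them, at most 4 called genes per list and comparison were named, and the 5 genes closest in profile to each list's mean. Deviations of same-numbered samples from their group means were weakly correlated (r from -0.119 to 0.0918). The depots of 1 animal need not deviate together, so this cannot tell whether equal numbers mark the same mouse. Samples were treated as unpaired. Promoters are RefSeq windows of GRCm38.p6 (all 34 members matched the annotation, and 22 had a window).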

Additional observations from a re-analysis of the deposited data

How the results depend on the processing

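The depot counts of macrophage markers varied little over 26 alternatives, which were other added constants, scalings, filters, weights, tests and each array left out in turn. With 1 array left out they were 17 to 19 of 21 in KO mice and 17 to 19 in WT mice. Of all 19933 genes, 7871 to 9920 in KO mice and 8610 to 11181 in WT mice were then called in either direction. The replicate block (replicate number as a term) gave 19 and 18, 0 and 4 for lymphocyte markers, and 0 for the genotype and between-depot comparisons, so it changed none of these counts. Between KO and WT in WAT, macrophage calls were 5 with array weights, 1 by a fold of at least 1.5 with p under 0.05 unadjusted, and 0 to 2 with an array left out, the 2 coming without KO WAT replicate 3. In BAT they were 1 with array weights, 2 by the authors' p-values on log values, 2 on linear values, 1 by the unadjusted rule and 0 to 2 with an array left out, again 2 without KO WAT replicate 3. For the genotype difference in BAT minus that in WAT, the unadjusted rule called 1 macrophage marker, against 0. Lymphocyte calls in WAT were 1 by the authors' p-values on log values, 1 on linear values, 1 by the unadjusted rule and 0 to 1 with an array left out (1 without WT WAT replicate 2). BAT minus WAT, lymphocyte calls in KO mice were 3 with quantile normalization, 7 with centring and 0 to 1 with an array left out, against 0; in WT mice they were 8 with centring, 0 by the unadjusted rule and 2 to 5 with an array left out, against 4. With centring, 12728 of all genes were called in KO mice and 13273 in WT mice, against 9373 and 10089. Quantile normalization called 10419 of all genes in KO mice. Centring turned the WT differences of Cd3d to 0.30 and Cd3e to 0.30, and the KO difference of Cd4 to 0.27, all then called; it adds the array-median shift to every gene. Dim members have no value under the brightness filter. Without detection calls, how far dim probes stood above background is unknown.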

Other observations

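Outside the marker lists, a few immune genes were called between genotypes, while most genes of the same lists were not. Il18, a cytokine of the IL-1 family, was higher in KO in both depots. It read 24.6, 39.4 and 39.6 in KO BAT, against 13.6, 11.8 and 9.32 in WT BAT (0.86, limma adjusted p = 0.0225), and 45.4, 44.4 and 74.8 in KO WAT, against 27.5, 25.6 and 23.8 in WT WAT (0.74, adjusted p = 0.0382). It was the single gene called between genotypes among 25 chemokines and cytokines, where 2.42% of all genes were called in WAT and 1.72% in BAT. Fcgr2b, the inhibitory IgG receptor, was lower in KO WAT at 82.6, 59.1 and 124, against 225, 236 and 249.4 in WT WAT (-1.32, adjusted p = 0.00269), while its difference in BAT was 0.06 (adjusted p = 0.948), and the genotype difference itself differed between the depots (1.38, adjusted p = 0.0414). Itgae, the CD103 integrin chain, was lower in KO WAT at 37.2, 29.8 and 52.3, against 71.2, 72.1 and 73.4 in WT WAT (-0.68, adjusted p = 0.017), and its depot difference in genotype effect was also called (1.09, adjusted p = 0.0228). Of 6 measured Fc receptor genes, 1 was called between genotypes in WAT and 0 in BAT. Of 17 measured genes of antigen presentation, 1 was called in WAT and 0 in BAT. The genotype difference differed between depots for 1 gene of either list, as for 0.592% of all genes.

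Between depots, genes of antigen presentation were lower in BAT in 6 of 17 cases and higher in 1 in KO mice, and lower in 6 and higher in 2 in WT mice, beside 26.8% of all genes lower and 20.2% higher in KO mice and 30.3% lower and 20.3% higher in WT mice. They included H2-DMa, which helps load peptide on MHC class II (-1.94 in KO mice and -1.95 in WT mice). Of 43 other lymphocyte genes, 11 were lower and 4 higher in BAT in KO mice, and 13 lower and 6 higher in WT mice, shares no higher than those of all genes, with 0 called between genotypes by limma. Cd52 differed by -4.32 in KO mice and -4.68 in WT mice and is also made by epididymal epithelium. The epididymal sum differed between the depots, and its part in these values was not tested.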
